A study of Arabidopsis thaliana with 12 samples.

Results

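Xylem vessels are the water pipes of a plant. Each vessel cell lays a thick secondary wall of cellulose, xylan and lignin inside its primary wall, then kills itself and digests its contents, so that a hollow tube remains. In Arabidopsis the programme starts with NAC transcription factors, the VND family in vessels and the NST family in fibres and anthers, which switch on MYB46 and MYB83. These in turn act with further MYB, NAC and homeodomain factors on the genes for cellulose synthases, xylan enzymes and other wall proteins. The proteases and nucleases of cell death belong to the vessel branch.

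The 42 genes described here were named from this programme by their known roles, without lignin genes. They were chosen with earlier results of these data known, so the shares of all genes given beside them below are descriptive. All 42 are among the 27416 gene rows of the count table. They comprise 6 genes of secondary wall cellulose, 9 of xylan synthesis, 2 fasciclin-like protein genes, 4 protease or nuclease genes of vessel death, 7 VND genes, 3 NST genes and 11 downstream regulators. They were measured by RNA sequencing in shoot apices of Arabidopsis thaliana, taken when the main stem measured 1 cm, in days of 16 h light. The genotypes, with 4 libraries each, were the line rAP2-VENUS #A6, the mutant ap2-12 of the floral regulator gene APETALA2 (AP2), and wild type Col-0 (WT). VENUS is a yellow fluorescent protein. The labels do not state what the r in the name means, which promoter the construct has or which AP2 alleles #A6 carries, and it is a single line. They call the replicates independent and biological, and their wording mentions 15 apices without saying whether that is per library. Plant age in days is not stated.

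Library totals were 9680133 to 15152704 counts, and levels are given in CPM, read counts scaled to a common library size. AP2 itself was at 41.3 to 58.1 CPM in rAP2-VENUS, 15.5 to 20.6 CPM in ap2-12 and 42.3 to 92.8 CPM in WT (log2 fold change of ap2-12 to WT -1.73, SE 0.23, edgeR adjusted p = 0.000302). The meristem genes STM and WUS, which mark the apex, were counted in every library. STM was at 55.5 to 81.2 CPM in rAP2-VENUS, 25.7 to 33.5 CPM in ap2-12 and 56.2 to 82.2 CPM in WT. WUS was at 7.58 to 10.3 CPM in rAP2-VENUS, 4.97 to 6.77 CPM in ap2-12 and 5.19 to 8.09 CPM in WT. The vessel markers XCP1, XCP2, VND6 and VND7 were also counted in every library, so vessel transcripts were part of these apices in all 3 genotypes. The members together held 0.0189% to 0.0194% of the counts in rAP2-VENUS libraries, 0.00991% to 0.0113% in ap2-12 libraries and 0.0162% to 0.0174% in WT libraries. The 3 genotypes did not overlap in this share.

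The counts of these genes were small. The low-count filter (edgeR's filterByExpr) kept 34 of the 42. Averaged over all libraries, these 34 ran from 0.578 to 26 CPM and 25 of them were under 5 CPM, where the median of all 18807 genes tested was 24.8 CPM. The 8 it left out were NST1, NST2, NST3, MYB83, MYB63, MYB85, MYB103 and MYB54. A gene can pass such a filter through the genotype in which it is high, so the counts over the 34 describe those genes and not the whole set. In the text, a gene is called when its Benjamini-Hochberg adjusted p in edgeR's quasi-likelihood test over all genes is under 0.05. Values per library are in CPM and in the order of replicates 1 to 4.

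In ap2-12 against WT, 17 of the 34 tested members fell and 0 rose, where 9.59% of all tested genes were called lower and 5.65% higher. The median log2 fold change of the 34 was -1.02, against 0 over all genes tested. At an unadjusted p under 0.05, 23 were lower and 1 was higher, where 2885 of the 18807 genes tested were lower and 2323 higher. DESeq2 called 17 of the members lower and 0 higher, and its own share of all genes is not given here. The 17 were CESA4, CESA7, CESA8, COBL4, CTL2, IRX9, GUX1, FLA11, XCP1, XCP2, MC9, BFN1, VND4, VND6, MYB46, SND2 and KNAT7. They came from each role group except the NST genes, of which none was tested. The ap2-12 libraries lay wholly below the WT libraries for 20 of the 34, against 11% of all genes tested. For no member did they lie wholly above, against 7.66% of all genes tested. In such bulk samples, fewer vessel cells and less RNA per vessel cell cannot be told apart.

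**Figure D1:**
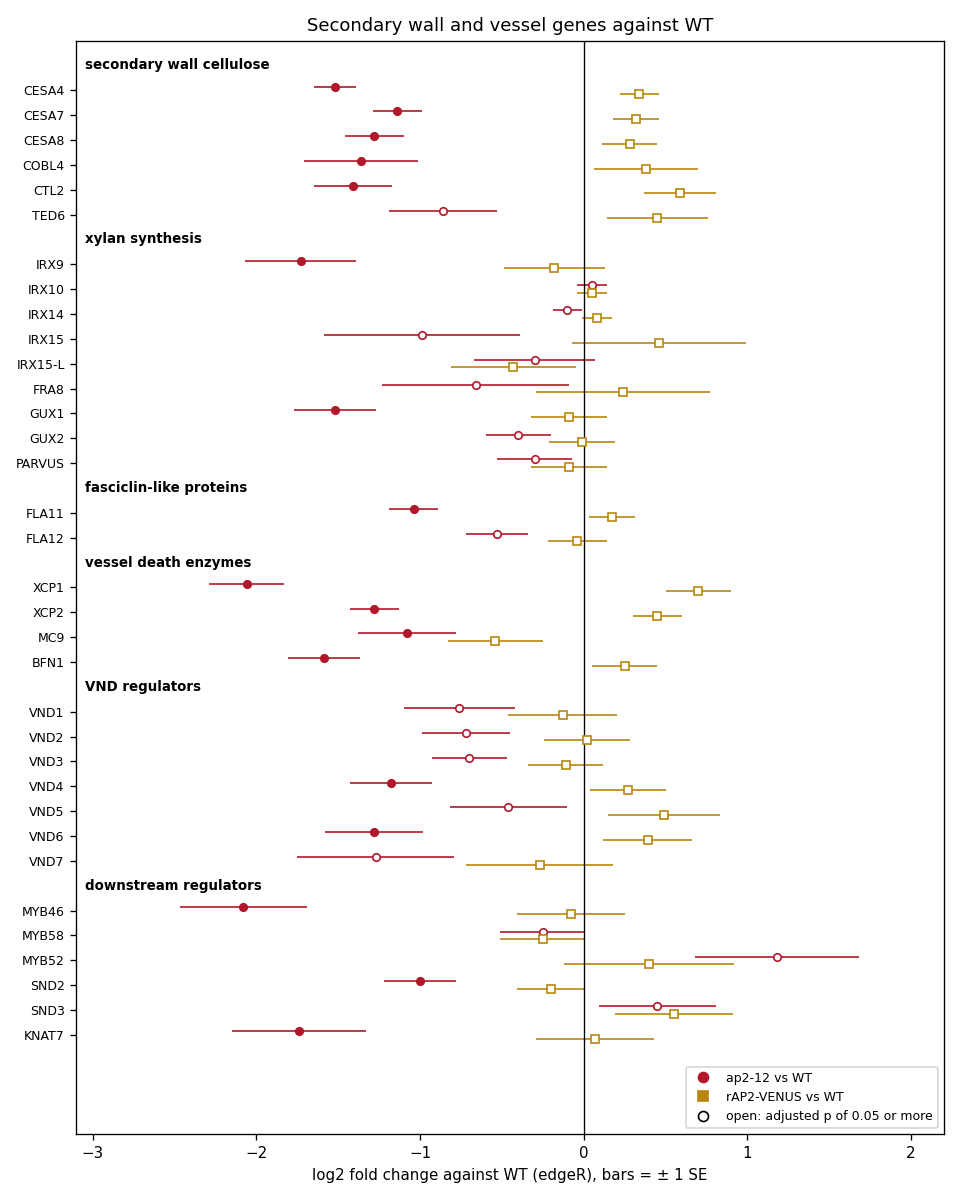
Log2 fold change of each of the 34 tested members against WT, grouped by role. Circles are ap2-12 vs WT, squares are rAP2-VENUS vs WT, bars are 1 SE on either side, and filled symbols have an adjusted p under 0.05. The 17 filled circles all lie left of 0, and no square is filled.

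Secondary wall cellulose is made by a complex of 3 different catalytic subunits, CESA4, CESA7 and CESA8. All 3 subunit genes fell in ap2-12. CESA4 (AT5G44030) had 12, 13.1, 11.7 and 12 CPM in rAP2-VENUS, 2.67, 3.22, 3.32 and 4.19 CPM in ap2-12, against 10.3, 9.17, 10 and 9.03 CPM in WT. The highest ap2-12 library was thus well under the lowest of the other 8. CESA4 fell by 1.52 on the log2 scale in ap2-12 against WT (SE 0.13, adjusted p = 9.81e-06), a 2.86-fold lower level. CESA7 (AT5G17420) had 10.8, 12.5, 9.98 and 12.1 CPM in rAP2-VENUS, 3.9, 3.95, 5.04 and 3.65 CPM in ap2-12, against 10.4, 8.23, 7.82 and 10.1 CPM in WT. Its ap2-12 libraries again stood apart below both other genotypes (log2 fold change to WT -1.14, SE 0.15, adjusted p = 0.000223). CESA8 (AT4G18780) had 12.2, 9.52, 13.1 and 11.5 CPM in rAP2-VENUS, 3.9, 4.82, 3.45 and 3.58 CPM in ap2-12, against 8.33, 7.49, 10.2 and 12.1 CPM in WT. The same separation held for CESA8 (log2 fold change to WT -1.28, SE 0.18, adjusted p = 0.000382).

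The 3 subunit genes also stayed close to each other in level. Divided by exon length, CESA4, CESA7 and CESA8 averaged 3.24, 3.32 and 3.47 CPM per kb in rAP2-VENUS, 0.888, 1.22 and 1.18 CPM per kb in ap2-12, and 2.55, 2.69 and 2.85 CPM per kb in WT. Each of the 3 genes overlaps a neighbour on the opposite strand, and without a stated strand setting the reads there cannot be assigned. The opposite-strand neighbours of CESA4 (AT5G44040, log2 fold change -0.17, adjusted p = 0.53) and CESA7 (AT5G17410, 0.03, adjusted p = 0.816) were not called in ap2-12, and AT4G18770, opposite to CESA8, averaged 0.012 CPM. CESA4 also overlaps AT5G44020 on its own strand, which fell by 2.68 (adjusted p = 0.00058).

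Of the 3 accessory genes of cellulose deposition, CTL2 and COBL4 fell in ap2-12 and TED6 was not called. CTL2 (AT3G16920), a chitinase-like protein linked to cellulose assembly, had 6.79, 6.35, 5.23 and 5.95 CPM in rAP2-VENUS, 1.53, 1.74, 1.73 and 1.08 CPM in ap2-12, against 3.13, 2.97, 5.41 and 4.62 CPM in WT. Every ap2-12 library was below every WT library (log2 fold change -1.41, SE 0.24, adjusted p = 0.00147), while WT itself spread widely. COBL4 (AT5G15630), a COBRA-like cell surface protein needed for secondary wall cellulose, had 2.04, 2.04, 3.14 and 2.83 CPM in rAP2-VENUS, 0.458, 0.804, 0.415 and 1.28 CPM in ap2-12, against 2.71, 1.69, 1.46 and 1.92 CPM in WT. The ap2-12 and WT libraries of COBL4 did not overlap (log2 fold change -1.36, SE 0.35, adjusted p = 0.021). This call was lost without ap2-12 replicate 2 (adjusted p = 0.0532), without ap2-12 replicate 3 (0.0627), without WT replicate 1 (0.0572) or when only the ap2-12 and WT libraries were fitted (0.0512). TED6 (AT1G43790), a membrane protein of differentiating vessels, had 5.13, 6.35, 4.47 and 6.65 CPM in rAP2-VENUS, 1.3, 1.88, 2.76 and 3.11 CPM in ap2-12, against 3.13, 2.29, 6.07 and 4.98 CPM in WT. Its ap2-12 and WT ranges overlapped, and it was not called (log2 fold change -0.86, SE 0.33, adjusted p = 0.103). It was called lower without WT replicate 2 (0.0428) and with the replicate number as a block (0.0358).

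**Figure D2:**
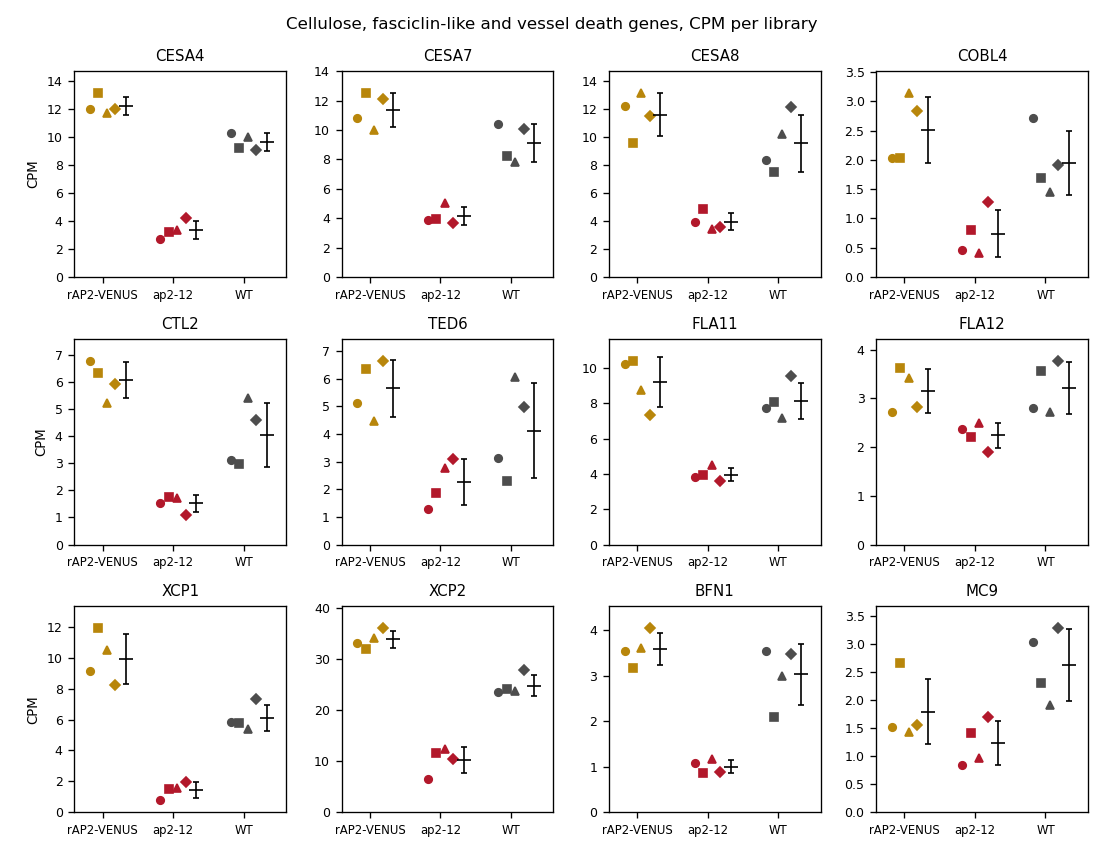
CPM in each library for the cellulose, fasciclin-like and vessel death genes, with genotypes side by side and replicates 1 to 4 as circle, square, triangle and diamond. Black marks are the mean and SD (n = 4). For XCP2 the ap2-12 libraries sit between 6.49 and 12.4 CPM, below WT at 23.5 to 27.9 CPM and rAP2-VENUS at 32 to 36 CPM.

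Xylan, the main non-cellulose polymer of these walls, has a backbone built by IRX9, IRX10 and IRX14, an end sequence that needs FRA8 and PARVUS, and glucuronic acid side chains added by GUX1 and GUX2. Of the 9 xylan genes 2 fell in ap2-12, IRX9 and GUX1, and 0 rose. Of all genes tested, 9.59% were called lower and 5.65% higher. IRX9 (AT2G37090) had 1.51, 1.29, 1.62 and 1.42 CPM in rAP2-VENUS, 0.611, 0.335, 0.345 and 0.675 CPM in ap2-12, against 2.4, 1.69, 0.878 and 1.71 CPM in WT. The ap2-12 libraries lay under all others (log2 fold change to WT -1.73, SE 0.34, adjusted p = 0.00423). GUX1 (AT3G18660) had 2.49, 2.49, 3.14 and 2.27 CPM in rAP2-VENUS, 0.688, 0.938, 0.898 and 1.28 CPM in ap2-12, against 1.88, 3.51, 2.93 and 2.63 CPM in WT. GUX1 likewise showed no overlap between ap2-12 and WT (log2 fold change -1.52, SE 0.25, adjusted p = 0.00143).

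The other backbone genes, which were the most abundant of the xylan group, were not called in any comparison, and their genotypes overlapped. IRX10 (AT1G27440) averaged 15.5 ± 0.95 CPM in rAP2-VENUS, 15.5 ± 1.34 CPM in ap2-12 and 15 ± 0.277 CPM in WT (SD, n = 4 each). Its log2 fold change in ap2-12 against WT was 0.05 with an SE of 0.09 (adjusted p = 0.766). IRX14 (AT4G36890) averaged 27.6 ± 2.4 CPM in rAP2-VENUS, 24.4 ± 1.87 CPM in ap2-12 and 26.1 ± 2.04 CPM in WT, with overlapping libraries (log2 fold change in ap2-12 -0.10, SE 0.09, adjusted p = 0.542). GUX2 (AT4G33330), the sister of GUX1, had 2.56, 3.02, 3.71 and 2.69 CPM in rAP2-VENUS, 2.22, 2.81, 2.21 and 1.82 CPM in ap2-12, against 3.02, 2.43, 3.58 and 2.99 CPM in WT. Its groups overlapped (log2 fold change in ap2-12 -0.40, SE 0.20, adjusted p = 0.222). IRX15 (AT3G50220), needed for xylan of normal length, had 0.302, 1.66, 0.951 and 0.425 CPM in rAP2-VENUS, 0.229, 0.201, 0.484 and 0.27 CPM in ap2-12, against 0.729, 0.742, 0.731 and 0.213 CPM in WT. With 3 to 22 counts a library, its estimate of -0.99 in ap2-12 had an SE of 0.60 (adjusted p = 0.318). IRX15-L, FRA8 and PARVUS were not called either, with log2 fold changes of -0.30 (SE 0.37), -0.66 (SE 0.57) and -0.30 (SE 0.23) in ap2-12.

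**Figure D3:**
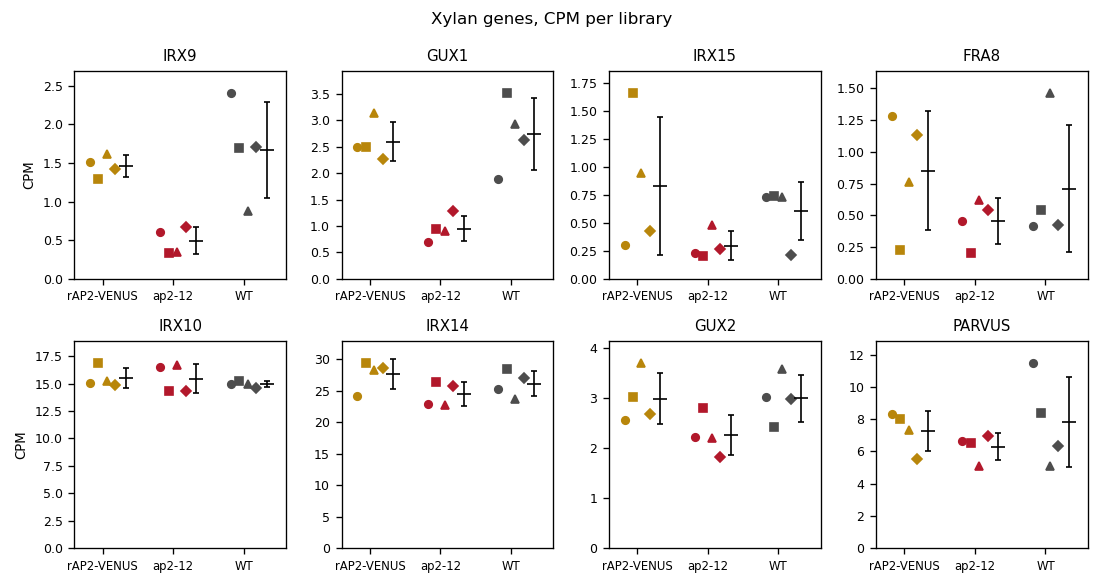
CPM in each library for 8 of the 9 xylan genes, with replicates 1 to 4 as circle, square, triangle and diamond and the mean and SD (n = 4) in black. IRX9 and GUX1 are lower in ap2-12 than in every other library, while the IRX10 libraries of the 3 genotypes overlap.

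FLA11 and FLA12 are fasciclin-like arabinogalactan proteins, cell surface proteins linked to the secondary walls of stems. FLA11 (AT5G03170) had 10.2, 10.4, 8.75 and 7.36 CPM in rAP2-VENUS, 3.82, 3.95, 4.49 and 3.58 CPM in ap2-12, against 7.71, 8.09, 7.17 and 9.53 CPM in WT. FLA11 fell by 1.04 in ap2-12 against WT (SE 0.15, adjusted p = 0.000489), with no overlap. Its opposite-strand neighbour AT5G03160 was not called (-0.29, adjusted p = 0.433). FLA12 (AT5G60490) had 2.72, 3.63, 3.42 and 2.83 CPM in rAP2-VENUS, 2.37, 2.21, 2.49 and 1.89 CPM in ap2-12, against 2.81, 3.57, 2.71 and 3.77 CPM in WT. The ap2-12 libraries were all below the WT libraries, yet the estimate of -0.53 (SE 0.19) was not called (adjusted p = 0.0799).

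All 4 vessel death genes fell in ap2-12, where 9.59% of all genes tested were called lower. XCP1 and XCP2 are papain-like proteases that digest the vessel's contents from its vacuole. XCP1 (AT4G35350) had 9.13, 11.9, 10.5 and 8.21 CPM in rAP2-VENUS, 0.764, 1.47, 1.59 and 1.96 CPM in ap2-12, against 5.83, 5.8, 5.41 and 7.32 CPM in WT. The 3 genotypes formed separate bands, and the ap2-12 level was 4.17-fold lower than WT (log2 fold change -2.06, SE 0.23, adjusted p = 8.5e-05). XCP2 (AT1G20850) was the most abundant member per exon length, at 24.6 CPM per kb in rAP2-VENUS, 7.4 CPM per kb in ap2-12 and 18 CPM per kb in WT, except that IRX10 and IRX14 stood above it in ap2-12. It had 33.2, 32, 34.2 and 36 CPM in rAP2-VENUS, 6.49, 11.5, 12.4 and 10.5 CPM in ap2-12, against 23.5, 24.1, 23.7 and 27.9 CPM in WT. XCP2 formed separate bands as well (log2 fold change of ap2-12 to WT -1.28, SE 0.15, adjusted p = 0.000138). Opposite to XCP1, the overlapping gene AT4G35360 was not called (-0.10, adjusted p = 0.439).

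The other death genes act on nucleic acids and on the dead cell. BFN1 (AT1G11190), a nuclease of cell death and senescence, had 3.54, 3.17, 3.61 and 4.04 CPM in rAP2-VENUS, 1.07, 0.871, 1.17 and 0.878 CPM in ap2-12, against 3.54, 2.09, 3 and 3.48 CPM in WT. No ap2-12 library reached the lowest WT library (log2 fold change -1.59, SE 0.22, adjusted p = 0.00039). MC9 (AT5G04200), a metacaspase that clears vessel cells after death, had 1.51, 2.65, 1.43 and 1.56 CPM in rAP2-VENUS, 0.841, 1.41, 0.967 and 1.69 CPM in ap2-12, against 3.02, 2.29, 1.9 and 3.27 CPM in WT. MC9 fell in ap2-12 against WT by 1.08 (SE 0.30, adjusted p = 0.0271), but it missed the threshold in 5 of the 8 fits that left out a library. These were the omissions of ap2-12 replicates 1 (adjusted p = 0.0592), 2 (0.056) and 3 (0.0828) and of WT replicates 1 (0.0643) and 4 (0.0886). MC9 was also the death gene whose rAP2-VENUS mean was under WT, at 1.78 ± 0.577 CPM in rAP2-VENUS and 2.62 ± 0.634 CPM in WT (SD, n = 4 each; log2 fold change -0.54, adjusted p = 0.736).

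Of the 7 VND genes, the switches of vessel identity, 2 fell in ap2-12 and 0 rose, and the estimates of all 7 were below 0. Among all genes tested, 9.59% were called lower and 5.65% higher. With the replicate number as a block, VND2 (adjusted p = 0.0266) and VND3 (0.0394) were also called lower by edgeR. VND6 and VND7 are best known, as drivers of metaxylem and protoxylem vessels. VND6 (AT5G62380) had 2.11, 1.81, 1.9 and 1.98 CPM in rAP2-VENUS, 0.458, 0.938, 0.622 and 0.405 CPM in ap2-12, against 1.67, 0.944, 1.54 and 1.85 CPM in WT. WT replicate 2 was only just above the highest ap2-12 library, so the groups touched without overlap (log2 fold change -1.28, SE 0.30, adjusted p = 0.0126). Its opposite-strand neighbour AT5G62390, an abundant gene at 388 CPM, had a log2 fold change of 0 (adjusted p = 0.994). VND4 (AT1G12260) had 3.77, 3.1, 2.76 and 3.82 CPM in rAP2-VENUS, 0.688, 1.41, 1.31 and 1.49 CPM in ap2-12, against 3.23, 2.97, 2.27 and 2.77 CPM in WT. VND4 was lower in every ap2-12 library than in any other library (log2 fold change to WT -1.18, SE 0.25, adjusted p = 0.00591).

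VND2 and VND3 came next by adjusted p. VND3 (AT5G66300) had 2.41, 1.81, 1.81 and 1.56 CPM in rAP2-VENUS, 1.22, 1.41, 1.52 and 0.878 CPM in ap2-12, against 2.4, 1.89, 2.19 and 1.78 CPM in WT. The ap2-12 libraries did not overlap WT, but the estimate of -0.70 (SE 0.23) was not called (adjusted p = 0.0609). VND2 (AT4G36160) had 4.53, 2.57, 2.57 and 3.19 CPM in rAP2-VENUS, 2.75, 1.47, 1.38 and 2.09 CPM in ap2-12, against 3.54, 3.1, 3.58 and 2.49 CPM in WT. Its groups overlapped (log2 fold change -0.72, SE 0.27, adjusted p = 0.0944; 0.0335 without ap2-12 replicate 1). VND1 (-0.76, SE 0.34, adjusted p = 0.165), VND5 (-0.46, SE 0.36, 0.449) and VND7 (-1.27, SE 0.48, 0.101) were not called in ap2-12, although the VND5 libraries did not overlap. VND7 had 1 to 12 counts a library in ap2-12 and 11 to 17 in WT, and it was called without ap2-12 replicate 2 (log2 fold change -1.86, adjusted p = 0.0315). Per exon length the WT means ran from VND2 (1.63 CPM per kb), VND3 (1.47), VND4 (1.44) and VND6 (1.07) to VND1 (0.943), VND7 (0.588) and VND5 (0.327). In ap2-12 the lowest were VND5 and VND7, both at 0.235 CPM per kb, then VND6 at 0.434.

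The NST genes, which drive secondary walls of fibres and of the anther wall, had few counts, and NST2 and NST3 had almost none. NST3 had 0 counts in rAP2-VENUS, 1 count in ap2-12 and 0 counts in WT, summed over 4 libraries each. NST2 had 1 count in rAP2-VENUS, 2 in ap2-12 and 0 in WT. NST1 had 16 counts in rAP2-VENUS, 27 in ap2-12 and 30 in WT. None of the 3 passed the filter, and with no filter none was called in any comparison. In ap2-12 against WT, NST1 stood at -0.28 (SE 0.62, adjusted p = 0.815 with no filter). NST1 had counts in 11 of 12 libraries, and its 27 counts in ap2-12 equalled those of VND5 there and exceeded the 23 of VND7. All 7 VND genes had counts in every library. Summed over the family, the VND genes were at 11.9 to 16.7 CPM in rAP2-VENUS, 6.34 to 7.44 CPM in ap2-12 and 11.4 to 14.9 CPM in WT.

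Among the downstream regulators, 3 of 6 tested genes fell in ap2-12 and 0 rose, where 9.59% of all genes tested were called lower and 5.65% higher. MYB46 (AT5G12870), the switch that VND and NST factors act through, had 1.28, 1.59, 1.24 and 1.06 CPM in rAP2-VENUS, 0.382, 0.335, 0.207 and 0.338 CPM in ap2-12, against 1.88, 1.82, 1.24 and 0.569 CPM in WT. These ap2-12 values rest on 3 to 5 counts a library, and WT ranged widely, but the groups did not overlap (log2 fold change -2.08, SE 0.39, adjusted p = 0.0032). KNAT7 (AT1G62990), a homeodomain factor that tunes secondary walls, had 1.13, 1.97, 1.71 and 1.13 CPM in rAP2-VENUS, 0.0764, 0.335, 0.553 and 0.675 CPM in ap2-12, against 1.56, 1.15, 1.39 and 1.56 CPM in WT. KNAT7 fell by 1.74 in ap2-12 against WT (SE 0.41, adjusted p = 0.0128), with no overlap and with 1 count in ap2-12 replicate 1. SND2 (AT4G28500), a NAC factor below the NST genes, had 1.81, 1.44, 1.62 and 1.49 CPM in rAP2-VENUS, 0.917, 1.07, 0.622 and 1.01 CPM in ap2-12, against 1.56, 1.82, 1.83 and 2.06 CPM in WT. SND2 fell by 1 (SE 0.22, adjusted p = 0.0089), with no overlap between ap2-12 and WT.

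**Figure D4:**
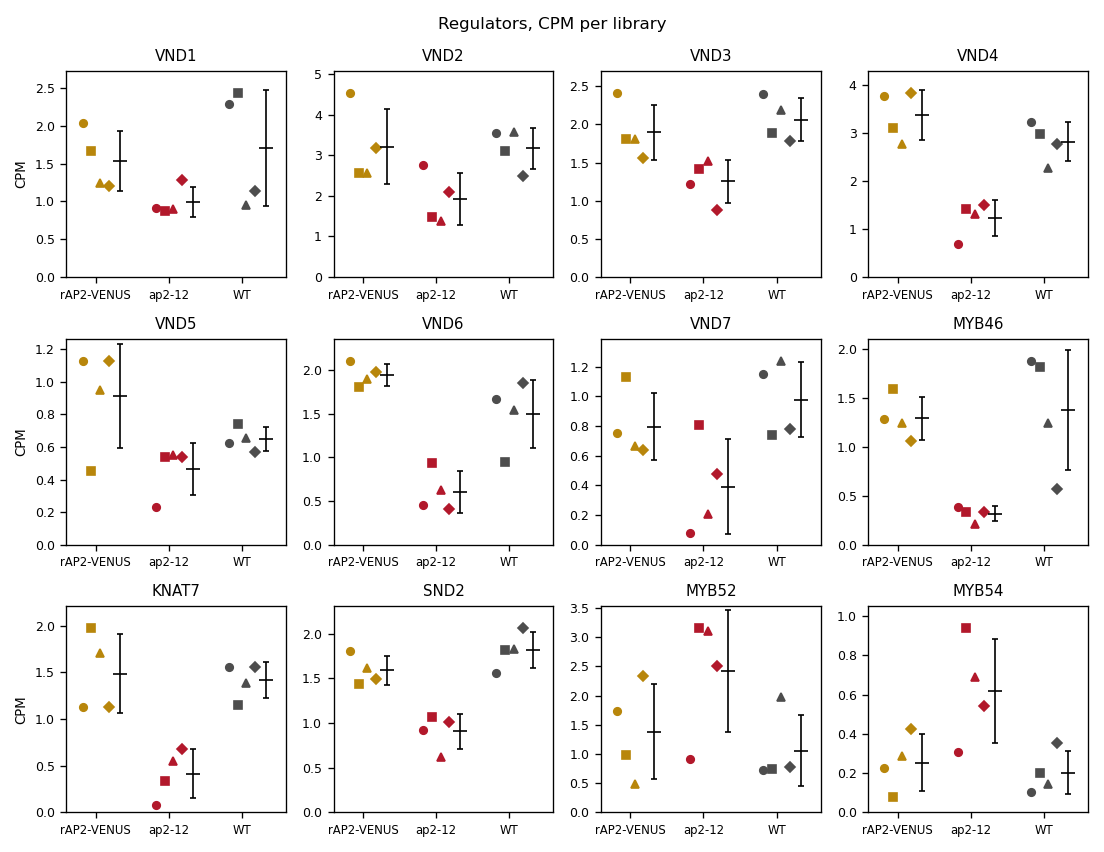
CPM in each library for the 7 VND genes, MYB46, KNAT7, SND2, MYB52 and MYB54, with replicates 1 to 4 as circle, square, triangle and diamond and the mean and SD (n = 4) in black. VND4, MYB46 and KNAT7 are lower in ap2-12 than in the other libraries, and MYB52 has its 3 highest values in ap2-12 replicates 2, 3 and 4.

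Not all downstream regulators were low in ap2-12. MYB52 (AT1G17950), a MYB factor below MYB46, had 1.73, 0.983, 0.475 and 2.34 CPM in rAP2-VENUS, 0.917, 3.15, 3.11 and 2.5 CPM in ap2-12, against 0.729, 0.742, 1.97 and 0.782 CPM in WT. Its estimate of 1.18 (SE 0.50) was above 0 and not called (adjusted p = 0.145), with ap2-12 replicate 1 inside the WT range. Without WT replicate 3 it was called higher (1.69, adjusted p = 0.049). MYB54, the closest relative of MYB52 in this set, had 13 counts in rAP2-VENUS, 36 in ap2-12 and 11 in WT over 4 libraries each. With no filter its estimate in ap2-12 was 1.55 (SE 0.53, adjusted p = 0.0787). The NAC factor SND3 (0.45, SE 0.36, adjusted p = 0.46) and the lignin activator MYB58 (-0.25, SE 0.26, adjusted p = 0.582) were not called. MYB83, the partner of MYB46, had 32 counts in rAP2-VENUS, 13 in ap2-12 and 32 in WT (-1.36, SE 0.71, adjusted p = 0.263 with no filter). MYB63, a lignin activator like MYB58, and the wall regulators MYB85 and MYB103 had 36, 24 and 23 counts in rAP2-VENUS, 19, 13 and 9 counts in ap2-12 and 18, 17 and 16 in WT, and none was called with no filter.

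In rAP2-VENUS against WT, edgeR called 0 of the 34 members, where 0.261% of all genes tested were called higher and 0.367% lower, or 0.627% in either direction. With the replicate number as a block it also called 0, where 1.1% of all genes were called higher and 1.15% lower. At an unadjusted p under 0.05, 5 were higher (CESA4, CESA7, CTL2, XCP1 and XCP2) and 0 lower. Of all 18807 genes tested, 715 were higher and 785 lower at that threshold. DESeq2 called 1 member, XCP1, and its own share of all genes is not given here. The median log2 fold change was 0.13, against 0 over all genes tested. The 6 cellulose genes all had estimates above 0, from 0.28 for CESA8 to 0.59 for CTL2 (SE 0.22, adjusted p = 0.411). For 3 members the rAP2-VENUS libraries lay wholly above WT, against 2.39% of all genes tested (5.02% parted in either direction). They were CESA4 (log2 fold change 0.34, SE 0.12, adjusted p = 0.388), XCP1 (0.70, SE 0.20, adjusted p = 0.209; 0.033 in DESeq2) and XCP2 (0.45, SE 0.15, adjusted p = 0.311). The values of XCP1 given above were 8.21 to 11.9 CPM in rAP2-VENUS and 5.41 to 7.32 CPM in WT.

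In rAP2-VENUS against ap2-12, 17 of the 34 members were higher and 0 lower, where 11.7% of all genes tested were called higher and 7.86% lower, or 19.6% in either direction. The libraries of 19 members lay wholly above ap2-12, against 13.9% of all genes tested (24.5% parted in either direction). At an unadjusted p under 0.05, 22 were higher and 0 lower, where 3235 of the 18807 genes tested were higher and 2772 lower. DESeq2 called 17 of the members higher and 0 lower, and its own share of all genes is not given here. This comparison shares its ap2-12 libraries with the one against WT. The largest estimates among the 34 were those of XCP1 (log2 fold change 2.76, SE 0.23, adjusted p = 4.94e-06), a 6.77-fold higher level, MYB46 (2.01, SE 0.39, adjusted p = 0.00309) and CTL2 (2, SE 0.23, adjusted p = 6.89e-05). All 6 cellulose genes were called here, TED6 included (1.32, SE 0.33, adjusted p = 0.0125), and its rAP2-VENUS and ap2-12 libraries did not overlap. MC9 was not called (0.54, SE 0.30, adjusted p = 0.253). The other called members were CESA4 (1.86), CESA7 (1.45), CESA8 (1.55), COBL4 (1.74), IRX9 (1.55), GUX1 (1.43), FLA11 (1.21), XCP2 (1.72), BFN1 (1.84), VND4 (1.45), VND6 (1.67), SND2 (0.80) and KNAT7 (1.81). SND2 (adjusted p = 0.0251) lost its call without rAP2-VENUS replicate 1 (0.08), rAP2-VENUS replicate 3 (0.0543) or ap2-12 replicate 3 (0.0788), and in DESeq2 (0.0568). IRX10 (0.01, SE 0.09) and IRX14 (0.18, SE 0.09) were not called.

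Replicate number was also tested as a term, a test added after the data had been seen. With genotype in the model, 2 of the 34 differed between replicate numbers, IRX15-L (adjusted p = 0.0245) and SND3 (adjusted p = 0.0484), where 29.5% of all genes tested were called. IRX15-L was at 2.56, 2.57, 1.81 and 1.27 CPM in rAP2-VENUS, 2.9, 2.68, 1.66 and 1.82 CPM in ap2-12, against 5.1, 2.83, 1.54 and 1.85 CPM in WT. Replicates 1 and 2 were thus above replicates 3 and 4 in each genotype. The members had few counts, and the part of depth in this low number was not tested. The clock genes LHY and FKF1 also varied with replicate number. In WT, LHY had 224, 100, 22.5 and 22.8 CPM and FKF1 0.729, 1.15, 17.5 and 16.3 CPM. FKF1 in replicate 2 was at 16.2 CPM in rAP2-VENUS and 5.83 CPM in ap2-12, so the genotypes were not alike in this. The part of such differences in the members' values was not tested.

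Genes around the programme were taken from lists by role. Of all genes tested in ap2-12 against WT, 9.59% were called lower and 5.65% higher. Of 22 tested other secondary wall genes 6 fell in ap2-12 and 0 rose (median log2 fold change -0.20). They included the xylan methyltransferase gene GXM1 (-2.40, adjusted p = 0.00192), TED7 (-0.98, 0.0135), MYB20 (-1.71, 0.015) and the ribonuclease gene RNS3 (-1.18, 0.0179). The call of TED7 was lost without WT replicate 4 (0.0506), that of RNS3 without ap2-12 replicate 4 (0.0572), and that of MYB20 without ap2-12 replicate 3 (0.0503) or WT replicate 2 (0.052). RNS3 lost its call in 2 of all 13 alternative fits, omissions included. Of 6 inhibitors of wall or vessel formation none was called by edgeR with all libraries and genotype only (1 at an unadjusted p under 0.05). MYB4 was at -0.46 (0.148), VNI2 at -0.41 (0.248), MYB32 at -0.24 (0.276) and XND1 at 0.32 (0.408), and DESeq2 called none of these 4. MYB4 was called lower without ap2-12 replicate 1 (0.0458). With the replicate number as a block, edgeR called MYB4 (0.0119) and VNI2 (0.0399) lower. Of 8 tested xylem specification genes 2 fell, the thermospermine synthase gene ACL5 (-0.28, 0.0195) and LBD30 (JLO in RefSeq; -1.23, 0.0264), and T5L1 (-0.41, 0.0706) and BUD2 (0.21, 0.252) were not called. When a library was left out, LBD30 failed the threshold in 6 of 8 cases (largest adjusted p 0.0679) and ACL5 in 2 (0.0792). T5L1 was called lower in DESeq2 (0.0498), without WT replicate 3 (0.0365) and without WT replicate 4 (0.0472).

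Markers of other cell types were counted in the same way, beside 9.59% lower and 5.65% higher among all genes tested. Whether calls in lists this short exceed these shares was not tested. Of 10 phloem genes 4 fell in ap2-12 and 0 rose (median -0.47), namely SEOR2 (-0.47, adjusted p = 0.00429), SEOR1 (-0.47, 0.00666), APL (-0.58, 0.0189) and the sucrose transporter gene SUC2 (-1.01, 0.0278). Leaving out a library took APL over the threshold in 3 of 8 cases (largest 0.0603) and SUC2 in 4 (0.0953). Over all 13 alternative fits, omissions included, SUC2 lost its call in 5. The summed phloem level was 297 to 354 CPM in rAP2-VENUS, 245 to 265 CPM in ap2-12 and 288 to 361 CPM in WT. SEOR1 was also called lower in rAP2-VENUS against WT (-0.55, adjusted p = 0.0278), the only 1 of the 10 phloem genes called there. In that comparison 0.367% of all genes tested were called lower. Between rAP2-VENUS and ap2-12, SEOR1 was not called (-0.08, adjusted p = 0.654). Of 6 tested procambium and cambium genes 1 fell, WOX4 (-0.90, 0.0239, over the threshold in 4 of 8 omissions, largest 0.0717), while PXY (-0.47, 0.0728), ATHB8 (-0.55, 0.138) and CLE41 (-0.17, 0.239) were not called. PXY was called lower in DESeq2 (0.045) and without WT replicate 3 (0.0132). Their sum was 248 to 311 CPM in rAP2-VENUS, 214 to 262 CPM in ap2-12 and 222 to 343 CPM in WT. None of the tested phloem or procambium markers was at 0 on average in any genotype, and the part of vascular tissue share in the members' values was not tested.

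The remaining counts also stand beside 9.59% lower and 5.65% higher among all genes tested in ap2-12 against WT. The genes listed as primary wall cellulose synthases give a second view of cellulose synthesis. Of these 6 genes 2 fell in ap2-12, CESA2 (-0.47, adjusted p = 0.0115) and CESA6 (-0.52, 0.0304). CESA6 was over the threshold in 5 of 8 omissions (largest 0.092), and in 6 of all 13 alternative fits, omissions included. CESA1 (-0.30, 0.0599) and CESA3 (-0.28, 0.0736) were not called. Both were called lower in DESeq2 (0.0283 and 0.0388) and without WT replicate 3 (0.0152 and 0.0248), and CESA3 also without ap2-12 replicate 1 (0.045). CESA5 (-0.41, 0.416) and CESA9 (0.01, 0.986) were not called. The median of the 6 was -0.35, beside -1.32 for the 6 secondary wall cellulose genes. The difference between those medians was not tested. Of 5 epidermis genes 1 fell, KCS6 (-0.82, 0.000582), and KCS10 (-0.29, 0.0677), PDF2 (-0.10, 0.471) and PDF1 (-0.11, 0.649) were not called. KCS10 was called lower in DESeq2 (0.0339), without ap2-12 replicate 1 (0.0356) and without WT replicate 3 (0.0281). Their sum was 2410 to 3140 CPM in rAP2-VENUS, 2060 to 2430 CPM in ap2-12 and 2140 to 2800 CPM in WT. Of 7 tapetum genes 3 rose in ap2-12, MS1 (3.57, 0.016), MYB80 (1.49, 0.0359) and AT5G07230 (0.91, 0.0372), and ATA7 was at 4.20 (0.0633) and not called. The rest of the list was not called either, with AMS at 0.39 (0.205), TDF1 at -0.08 (0.837) and DYT1 at -0.71 (0.185). For 0 of the 7 did the ap2-12 libraries lie wholly above WT. ATA7 had 0.0764, 29.3, 24.5 and 58.9 CPM in ap2-12, against 0, 0.0674, 5.85 and 0 CPM in WT. The genotypes overlapped, and ATA7 was called without WT replicate 3 (9.66, 0.0182) or ap2-12 replicate 1 (4.60, 0.0186). The other omissions gave 3.57 to 4.26. MYB80 was over the threshold in 6 of 8 omissions (largest 0.0957) and AT5G07230 in 5 (largest 0.102). Over all 13 alternative fits, omissions included, MYB80 lost its call in 7 and AT5G07230 in 6. The tapetum sum was 153 to 264 CPM in rAP2-VENUS, 189 to 338 CPM in ap2-12 and 113 to 206 CPM in WT, and the part of tapetum and epidermis in the members' values was not tested.

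**Figure D5:**
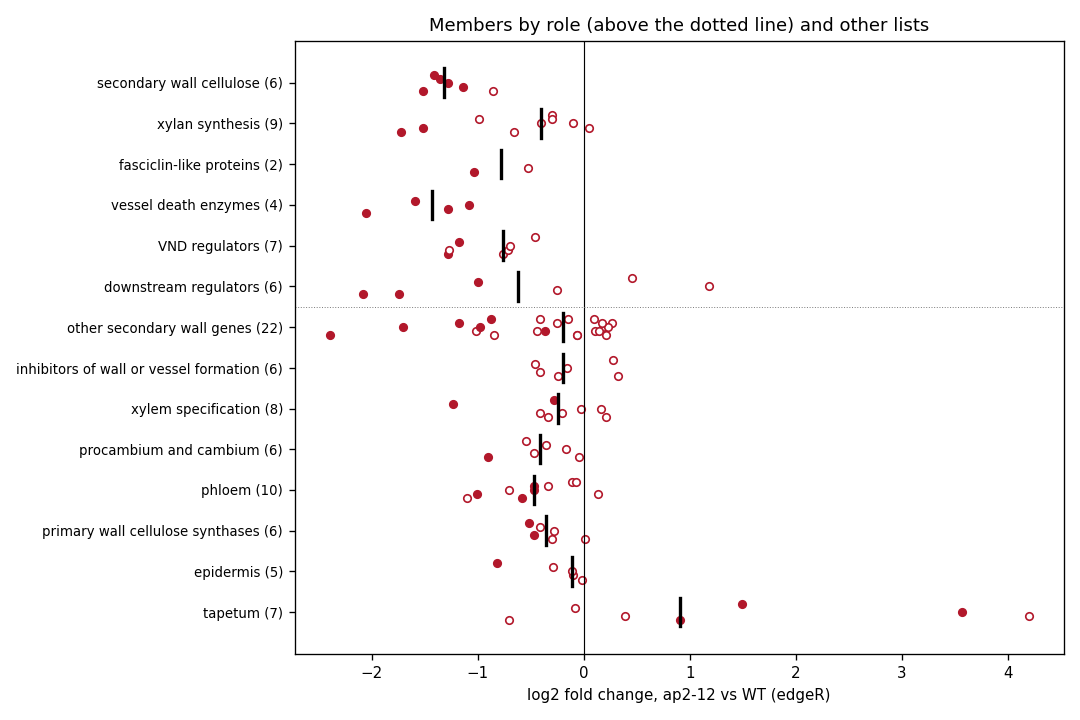
Log2 fold change in ap2-12 vs WT of each tested gene, by role of the members (above the dotted line) and by other lists (below it), with the number of genes tested in brackets. Filled symbols have an adjusted p under 0.05, and black bars are medians. The medians of vessel death (-1.43) and secondary wall cellulose genes (-1.32) lie farthest to the left, and the tapetum median (0.91) lies to the right.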

How the data were processed

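The authors deposited whole-number read counts per gene, unnormalized, with a column for each library. The submitters' processing notes list TAIR10, TopHat2, SAMtools and HTSeq but no versions. Whether counting used strand is not stated. RefSeq annotation of TAIR10.1 served for names, exon lengths and overlapping genes (11 of the 42 members overlap another gene), and no coordinates or sequences are printed. Related copies may have exchanged reads.

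Genes were kept by filterByExpr, and counts were scaled by TMM and fitted together for all 12 libraries with edgeR 4.0.16 (limma 3.58.1, R 4.3.3; genotype only). SE was taken as the absolute estimate over the root of the F statistic. CPM used TMM-scaled totals. Adjusted p is Benjamini-Hochberg over 18807 genes within a comparison. Alternatives were DESeq2 1.42.0, median-of-ratios scaling, no filter, a replicate block, fits of 2 genotypes, and leaving out each library. The fit was tested on simulated data. Changed genes were drawn there only from genes above a count floor that low members such as MYB46 and KNAT7 did not reach. Libraries of a genotype differed beyond sampling noise (chi-square per degree of freedom 5 to 45.8).

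Members and lists were chosen with earlier results of these data known. Values per library are given for up to 4 members of each role with the smallest adjusted p in ap2-12 vs WT and for members called higher in any comparison. From each other list, at least the 4 genes with the smallest adjusted p there are named. For rAP2-VENUS and WT, libraries with the same number deviated together (correlations across genes of 0.63, 0.23, 0.2 and 0.43), so the numbers were taken to pair them. Replicates 2 and 4 of rAP2-VENUS nevertheless correlated better with a WT library of another number (0.25 and 0.65). With the replicate block 0 members were called in that comparison, as without it.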

Additional observations from a re-analysis of the deposited data

Results flagged for a closer look

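In 8 of 102 combinations of a tested member and a genotype, the highest or lowest of the 4 libraries stood apart from the other 3 by Dixon's test for outliers. Chance flags about 1 in 20 groups. In rAP2-VENUS, replicate 2 stood apart for IRX10 (16.9 CPM, others 14.9 to 15.2) and MC9 (2.65 CPM, others 1.43 to 1.56). In ap2-12, VND1 was at 1.28 CPM in replicate 4 (others 0.871 to 0.917) and VND5 at 0.229 CPM in replicate 1 (others 0.536 to 0.553). In WT, replicate 4 stood apart for IRX15 (0.213 CPM, others 0.729 to 0.742) and XCP2 (27.9 CPM, others 23.5 to 24.1), and replicate 3 for FRA8 (1.46 CPM, others 0.417 to 0.539) and MYB52 (1.97 CPM, others 0.729 to 0.782). Most of these values rest on few counts.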

How the results depend on the processing

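In ap2-12 against WT, members called lower numbered 17 with median-of-ratios scaling, with no filter and in DESeq2, and 15 with only those 2 genotypes. Leaving out 1 library gave 15 to 18 called lower and 0 to 1 called higher (MYB52, without WT replicate 3). In rAP2-VENUS against ap2-12 the same fits gave 16 to 18 called higher, and in rAP2-VENUS against WT they gave 0 except 1 in DESeq2 (XCP1). Of the called members, 15 of 17 in ap2-12 against WT and 16 of 17 in rAP2-VENUS against ap2-12 were called in every fit that tested them, the exceptions being COBL4, MC9 and SND2. MYB46 failed the low-count filter when only ap2-12 and WT were fitted, so its call has no value there.

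The other 2 comparisons were not taken as paired. Their lowest correlation of same-numbered libraries was -0.01 in ap2-12 against WT and 0.05 in rAP2-VENUS against ap2-12. A library matched its own number best in 2 of 4 cases in each of them. The same held in rAP2-VENUS against WT, so this count does not set the comparisons apart. With the replicate block, 20 members were called lower in ap2-12 against WT (TED6, VND2 and VND3 added) and 18 higher in rAP2-VENUS against ap2-12 (VND2 added). With the block the adjusted p in ap2-12 against WT was 0.0358 for TED6, 0.0266 for VND2 and 0.0394 for VND3, so that 4 of 7 VND genes were called. Among the other genes named, the block added ATHB8 (0.00143), PXY (0.00164), CESA3 (0.00325), CESA1 (0.00379), ATA7 (0.0061), KCS10 (0.0068), MYB4 (0.0119), T5L1 (0.02) and VNI2 (0.0399). Over all genes, the block gave 2421 higher and 2998 lower in ap2-12 against WT (1063 and 1803 without it), 207 and 217 in rAP2-VENUS against WT (49 and 69), and 3436 and 2779 in rAP2-VENUS against ap2-12 (2207 and 1479).

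Some estimates changed sign, all of members not called, and the cause was not tested. Not all of these estimates were near 0, as IRX15 in rAP2-VENUS against WT was at 0.46 (SE 0.53) with all libraries. VND2 in rAP2-VENUS against WT was -0.02 with the replicate block, and IRX10 in rAP2-VENUS against ap2-12 was -0.01 with no filter. Over single-library omissions, log2 fold changes ran as follows. In rAP2-VENUS against WT they were IRX9 -0.39 to 0.03, IRX15 -0.14 to 0.74, FRA8 -0.03 to 0.86, GUX1 -0.22 to 0.05, GUX2 -0.12 to 0.09, PARVUS -0.25 to 0.14, FLA12 -0.12 to 0.05, VND1 -0.34 to 0.11, VND2 -0.19 to 0.12, MYB46 -0.34 to 0.11 and KNAT7 -0.10 to 0.18. In rAP2-VENUS against ap2-12 they were IRX10 -0.05 to 0.04, IRX15-L -0.28 to 0.02, MYB58 -0.14 to 0.18 and SND3 -0.07 to 0.42, and in ap2-12 against WT IRX15-L -0.49 to 0.12. Most of these genes had few counts.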

Other observations

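AT5G44020, which overlaps the end of CESA4 on the same strand and was singled out after its values were seen, was more abundant than CESA4 (21.9 CPM over all libraries). It fell by 2.68 in ap2-12 against WT (adjusted p = 0.00058) and was higher by 3.19 in rAP2-VENUS than in ap2-12 (adjusted p = 0.00011). How many reads of the shared stretch were counted for either gene cannot be told from the table.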
